A study of Mus musculus with 12 samples.

Results

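Genes bound by SLM2 in both whole brain and hippocampus were compared between the tissues, peak by peak within the gene. SLM2 binding was mapped by eCLIP, in which RNA is cross-linked to protein by UV light, immunoprecipitated with an antibody to SLM2 and sequenced beside a size-matched input taken before the precipitation. The members were chosen by the measured peaks themselves: a protein-coding gene was kept when at least 1 peak centre of each tissue's list fell in its span on the same strand. This selected 60 of 21951 annotated protein-coding genes (0.273%), out of 421 with a whole-brain peak (1.92%), 83 with a hippocampal peak (0.378%) and 444 with a peak in either list. The 60 genes held 897 of the 2057 whole-brain peaks and 103 of the 178 hippocampal peaks. Because 8 peaks fell in a pair of overlapping members, either *Iqschfp* with *Schip1* or *Grcc10* with *Gm45234*, counts over peaks give each peak to the longer gene and rest on 58 genes.

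All tissue came from mice 30 days old on a C57BL/6J background, and all libraries used here were wild type. Whole brain had 2 eCLIP and 2 input libraries, and hippocampus had 2 and 2. Libraries from *Slm2* KO hippocampus were not used here. Each brain lysate came from a single animal and each hippocampal lysate from pooled hippocampi, and whole brain includes the hippocampus. By the methods and sequencing statistics of the study, whole-brain libraries had fewer PCR cycles and more reads, inputs included, so tissue, depth and amplification cannot be told apart in any comparison of the lists. Each tissue has 1 merged list of peaks with a log2 fold over input and a −log10 reproducibility score of at least 2, without read counts, so the depth behind a single peak is unknown here and peak counts carry no replicate spread. Intervals beside shares are exact (Clopper-Pearson) 95% binomial intervals and cover counting error only, and peaks of a gene are not independent. The lists report binding and not RNA levels, so they do not test the tissue labels, and fewer cells of a type cannot be told apart from less RNA per cell. None of 10 astrocyte, 11 oligodendrocyte, 10 microglial and endothelial and 14 cerebellar and striatal marker genes was bound in both lists, beside 0.273% of all protein-coding genes. In whole brain alone, *Slc1a2*, *Mbp* (13 peaks) and *Grm4* (31 peaks) of these markers were bound, and in hippocampus alone *Pdgfra*.

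SLM2, the product of *Khdrbs3*, is a STAR-family RNA-binding protein of neurons that regulates alternative splicing. It recognises short U- and A-rich elements of the form UWAA, where W is A or U, and is known for repressing the alternatively spliced segment 4 exons of the neurexins, presynaptic adhesion proteins that bind partners such as neuroligins across the synapse. Binding in an intron can act on exons nearby or at a distance, so the place of a site within its gene is of interest in its own right.

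Hippocampal peaks that overlapped a whole-brain peak had a mean of 4.08 UWAA words per 100 positions around the centre and 1.92 in the flanks. At least 1 word was held by 45 of 53, and the share of flank windows that held one is not given here. For each class of genes that had one, the intronic overlapping pair with the highest lower fold of its members is printed from the GRCm38 genome (mm10), 5′ to 3′ on the strand of the gene. *Nrxn2* was added after its values were seen, because the study names it. Capitals mark every base that belongs to a UWAA word, and overlapping words run together.
*Cntnap2*, intron 2, chr6:45076344-45076423, plus strand: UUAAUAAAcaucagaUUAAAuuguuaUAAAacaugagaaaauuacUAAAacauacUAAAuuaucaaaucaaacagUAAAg
*Grik2*, intron 14, chr10:49258412-49258507, minus strand: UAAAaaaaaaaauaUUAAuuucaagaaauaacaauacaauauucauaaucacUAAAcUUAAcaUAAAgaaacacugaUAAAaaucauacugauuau
*Frmpd4*, intron 4, chrX:168003515-168003634, minus strand: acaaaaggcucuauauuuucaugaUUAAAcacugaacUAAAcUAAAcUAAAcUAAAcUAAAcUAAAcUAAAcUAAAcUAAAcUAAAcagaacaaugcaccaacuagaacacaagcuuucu
*Syt1*, intron 3, chr10:108942408-108942559, minus strand: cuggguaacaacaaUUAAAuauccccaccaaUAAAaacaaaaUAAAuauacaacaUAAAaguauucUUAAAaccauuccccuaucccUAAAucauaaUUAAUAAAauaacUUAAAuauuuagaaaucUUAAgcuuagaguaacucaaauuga
*Pex5l*, intron 2, chr3:33124547-33124751, minus strand: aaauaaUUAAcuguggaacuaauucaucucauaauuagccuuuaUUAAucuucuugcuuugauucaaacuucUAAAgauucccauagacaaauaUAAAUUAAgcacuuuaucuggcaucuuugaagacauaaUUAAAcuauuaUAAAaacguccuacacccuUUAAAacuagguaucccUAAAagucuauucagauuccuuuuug
*Rbfox3*, intron 5, chr11:118797138-118797423, minus strand: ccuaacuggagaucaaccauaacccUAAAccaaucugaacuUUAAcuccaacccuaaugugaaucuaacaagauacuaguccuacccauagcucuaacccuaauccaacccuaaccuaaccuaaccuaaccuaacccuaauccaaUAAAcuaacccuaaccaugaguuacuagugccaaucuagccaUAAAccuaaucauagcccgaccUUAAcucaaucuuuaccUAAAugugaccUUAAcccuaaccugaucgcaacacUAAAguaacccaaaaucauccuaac
*Epha6*, intron 6, chr16:60200802-60200878, minus strand: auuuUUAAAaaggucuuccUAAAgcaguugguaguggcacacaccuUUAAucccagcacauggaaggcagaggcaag
*Nrxn2*, intron 24, chr19:6514477-6514611, plus strand: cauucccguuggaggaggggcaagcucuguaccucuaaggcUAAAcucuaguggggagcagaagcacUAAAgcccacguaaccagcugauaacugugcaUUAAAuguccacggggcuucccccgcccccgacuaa
The *Frmpd4* stretch held 12 UWAA words in 120 nt, 37.5% of its bases, most of them in a run of UAAAC units. *Cntnap2* had 36.2% of its 80 nt in UWAA words, and *Syt1* had 28.3% of 152 nt. *Nrxn2*, with 9.63% of 135 nt, and *Rbfox3*, with 11.2% of 286 nt, were the lowest of the 8 stretches. The *Rbfox3* stretch held repeated ccuaa units, which lack the final A of UAAA.

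The 50 hippocampal peaks that overlapped no whole-brain peak had a mean of 2.69 UWAA words per 100 positions and 1.81 in the flanks. At least 1 word was held by 35 of the 50, again without a share of flank windows beside it. Such peaks are shown for the genes above that had one of at most 150 nt, the nearest to a whole-brain peak in each.
*Syt1*, intron 5, chr10:108792673-108792760, minus strand: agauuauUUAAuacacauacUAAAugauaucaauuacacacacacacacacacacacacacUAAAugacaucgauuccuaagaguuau
*Epha6*, intron 4, chr16:60361764-60361897, minus strand: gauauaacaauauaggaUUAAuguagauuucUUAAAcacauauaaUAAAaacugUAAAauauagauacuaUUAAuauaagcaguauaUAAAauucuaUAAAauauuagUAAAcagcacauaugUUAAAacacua
The *Syt1* peak lay 78 nt from a whole-brain peak and carried a run of CA units beside 3 UWAA words. The *Epha6* peak lay 638 nt away and held 11 UWAA words, which took up 28.4% of its 134 nt. Its window, at 9.18 words per 100 positions, was at the highest value of the 50 peaks without overlap.

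Most shared genes had 1 hippocampal peak, while the number of whole-brain peaks varied widely. The median was 6 whole-brain peaks per gene (range 1 to 102) and 1 hippocampal peak (1 to 9), and 41 of the 60 genes had a single hippocampal peak. *Rbfox3*, which encodes the neuronal splicing factor NeuN, led whole brain with 102 peaks and had 3 in hippocampus. *Csmd1*, a large membrane protein with complement-control domains, led hippocampus with 9 and had 47 in whole brain. *Syt1*, the calcium sensor of synaptic vesicle release, had 55 and 6 peaks. *Nrg3*, a neuregulin ligand of ERBB4, had 56 and 5, and *Dlg2*, the postsynaptic scaffold PSD-93, had 51 and 5. The order of the genes differed between the lists: *Cadm2*, an adhesion molecule, had 73 whole-brain peaks and 1 hippocampal peak, while *Epha6*, a receptor for ephrins, had 3 and 4. Only *Epha6* and *Grin2a*, an NMDA receptor subunit with 1 and 2 peaks, had more peaks in the hippocampal list. Across the 60 genes Spearman's rank correlation between the 2 counts was 0.56, a description over genes chosen for having peaks in both and over lists of unequal depth.

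**Figure D1:**
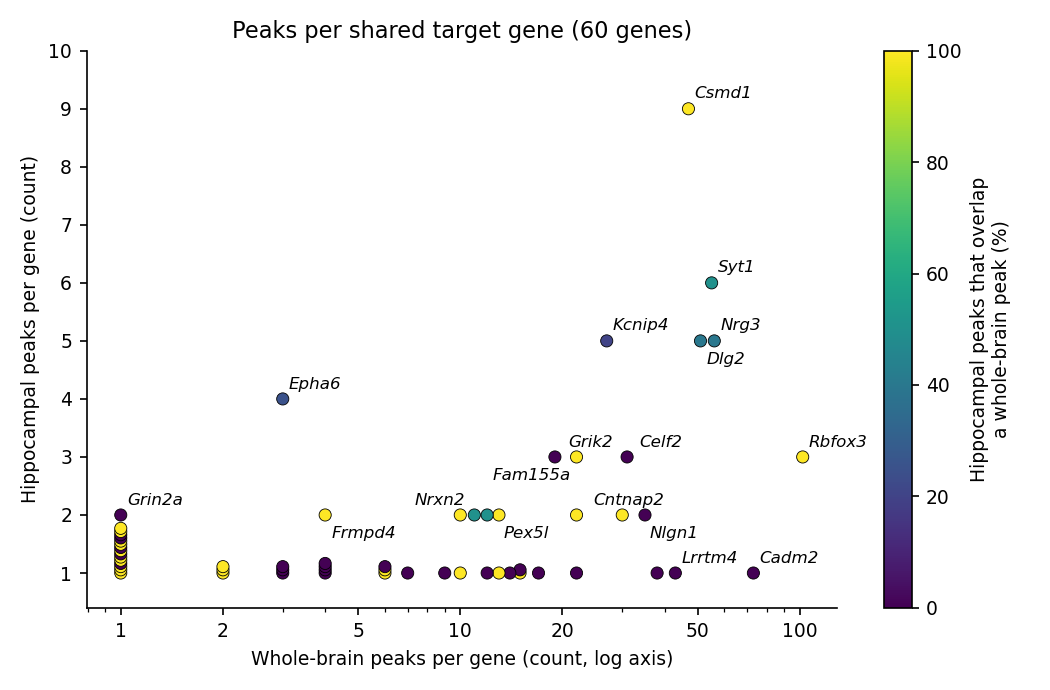
Whole-brain peaks (x axis, log scale) and hippocampal peaks (y axis) per gene in the 60 shared genes, with colour for the percent of a gene's hippocampal peaks that overlap a whole-brain peak. Genes with the same pair of counts are stacked upward. *Csmd1* has 9 hippocampal peaks, all of them overlapping, and *Epha6* and *Grin2a* have more hippocampal than whole-brain peaks.

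The fraction of whole-brain targets that were shared rose with their number of whole-brain peaks, though 16 of the 60 shared genes had only 1. Of the whole-brain targets with at least 1 peak, 14.2% (60 of 421, interval 11.1 to 17.96) also had a hippocampal peak, against 43.2% (32 of 74, 31.8 to 55.3) of those with at least 5 and 62.5% (15 of 24, 40.6 to 81.2) of those with at least 20. The shared genes had a median length of 529.1 kb, whereas the 361 whole-brain targets without a hippocampal peak had a median of 211.7 kb and a median of 1 peak. Just inside the rule were 15 genes with 1 peak in each list, among them *Tardbp*, *Kalrn* and *Arl15*. Just outside it on the whole-brain side, *Ptprd* had 87 peaks and *Pcdh9* 64, both adhesion genes and both without a hippocampal peak. On the hippocampal side, *Rock1* had 5 peaks, *Ss18* 3 and *Abi3* 2, without a whole-brain peak. These values restate the rule and carry no test.

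Of the gene classes listed, synaptic adhesion had the most shared genes, and 25 of the 60 were in no list. Of 76 listed, 11 were shared (14.5%, beside 0.273% of all protein-coding genes): *Csmd1*, *Nrg3*, *Nlgn1*, *Cntnap2*, *Nrxn3*, *Nrxn2*, *Cadm2*, *Lrrtm4*, *Tenm2*, *Erbb4* and *Lsamp*. They held 338 whole-brain and 27 hippocampal peaks, of which 17 overlapped. *Csmd1* alone gave 9 of these 27 hippocampal peaks and 9 of the 17 that overlapped. Postsynaptic scaffolds contributed 8 of 34 (23.5%), glutamate receptors 5 of 26 (19.2%) and RNA-binding proteins 4 of 51 (7.84%). Ion channels and their subunits contributed 3 of 49, vesicle release 3 of 55, and axon guidance and the GABAergic synapse 1 each. The lists were not matched on gene length and were written with earlier results in view, so these counts are descriptions.

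About 1 in 2 hippocampal peaks coincided with a whole-brain peak of the same gene, and most of the rest shared its intron. Of the 103 hippocampal peaks, 53 (51.5%, 41.4 to 61.4) overlapped a peak of the whole-brain list by 1 nt or more. Over the whole hippocampal list the figure was 55 of 178 (30.9%), a lower background that follows in part from the rule, since an overlap inside a gene makes that gene a member. Whole-brain peaks covered 0.263% of the summed span of the shared genes. At least 1 pair overlapped in 33 of the 60 genes, and in 26 genes every hippocampal peak did. The 53 peaks met 57 whole-brain peaks, 6.35% of the 897 (4.85 to 8.16). In 16 of 23 genes with an overlap and several whole-brain peaks, the whole-brain peak of highest −log10 p was among those overlapped. By log2 fold change this held in 9 of 23. The 23 count both *Grcc10* and *Gm45234*, which hold the same peaks, and some of the 23 had only 2 whole-brain peaks.

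Overlapping peaks had centres close together, which follows in part from the overlap that defines the pairs. Their centres were a median of 19 nt apart (interval of the median 6 to 29 nt, range 0 to 156 nt), with the hippocampal centre upstream in 30 pairs, downstream in 19 and identical in 4. They shared a median of 98 nt. Of the 53 overlapping hippocampal peaks, 34 had a −log10 p over input below 2. Among the 50 peaks without overlap the nearest whole-brain peak of the gene was a median of 3890 nt away (22 to 269359 nt), within 100 nt for 6 of them and within 1000 nt for 15. Of the 100 intronic hippocampal peaks, 92 (92.0%, 84.8 to 96.5) had a whole-brain peak in the same intron, and so did 41 of the 49 without overlap (83.7%, 70.3 to 92.7). Introns were counted as gaps between the merged exons of all transcripts, and the intron of an intronic hippocampal peak had a median length of 142.2 kb, so a shared intron is a coarse match.

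**Figure D2:**
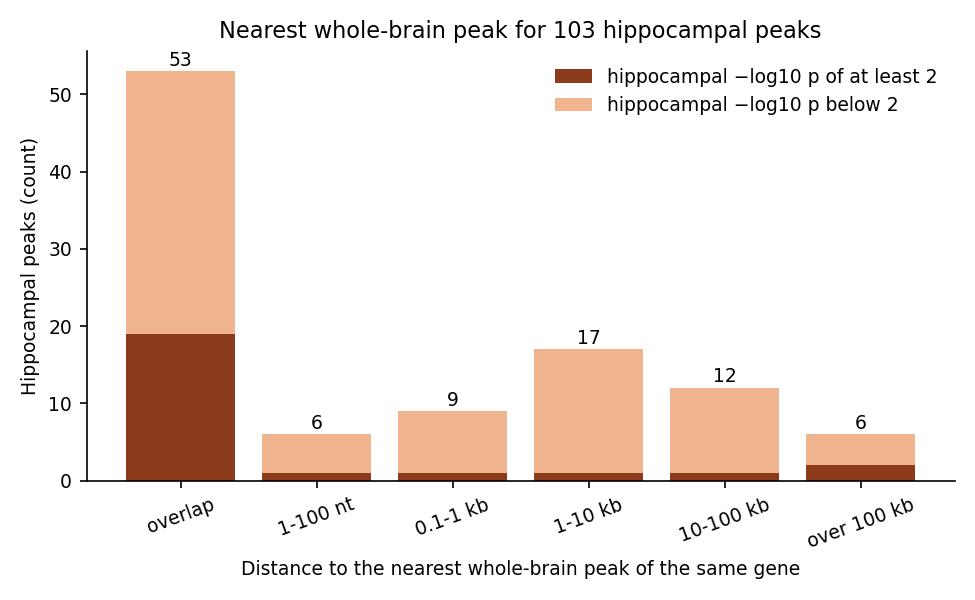
Hippocampal peaks of shared genes (bars, count on the y axis) by distance to the nearest whole-brain peak of the same gene (x axis), split by whether the hippocampal −log10 p over input was at least 2 (dark) or lower (light). Overlap holds 53 of the 103 peaks and 19 of the 25 with −log10 p of at least 2.

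Several genes of the synaptic adhesion list showed the same short stretch in both tissues. In *Csmd1* all 9 hippocampal peaks overlapped and lay within 4452 nt of intron 1 of 73, an intron of 142.2 kb. Of its 47 whole-brain peaks, 30 were in that intron and 21 had their centre within those 4452 nt. The log2 folds over input at the 9 hippocampal peaks ran from 2.33 to 3.09, and their −log10 p from 1.08 to 2.31. *Cntnap2*, which encodes the neurexin-family protein CASPR2, had 2 adjoining hippocampal peaks within 274 nt of intron 2, with the same fold of 3.63 and the same −log10 p of 3.72. They met the *Cntnap2* whole-brain peak of highest fold, at 3.92. In *Nrxn2* both hippocampal peaks overlapped whole-brain peaks in intron 24 of 27, a gap of 3.1 kb that held 7 of the 10 whole-brain peaks. The hippocampal log2 folds were 2.63 and 2.02, at −log10 p of only 1.49 and 0.635. *Nrxn3* had 1 overlapping peak in intron 25 of 28, at a log2 fold of 2.73 against 3.86 in whole brain and a hippocampal −log10 p of 1.61. It had another in intron 21 that missed a whole-brain peak by 28 nt. These *Nrxn2* and *Nrxn3* gaps come from merged exons, and their relation to the alternatively spliced segment 4 exons was not tested.

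Of the other genes in the synaptic adhesion list, *Nrg3* and *Erbb4* had an overlapping pair and *Nlgn1*, *Lrrtm4*, *Tenm2*, *Cadm2* and *Lsamp* had none. *Nlgn1*, a postsynaptic partner of neurexins, had 35 whole-brain and 2 hippocampal peaks, none overlapping, with gaps of 94 and 1569 nt in intron 6, which held 32 of the whole-brain peaks. *Lrrtm4*, another partner of neurexins, had 43 and 1 and a gap of 6682 nt, and *Tenm2*, a teneurin, had 22 and 1 and a gap of 9677 nt. *Cadm2* missed by 22 nt. *Nrg3* had 2 of 5 overlapping, and *Erbb4*, its receptor, 1 of 1, at log2 folds of 2.45 in hippocampus and 3.71 in whole brain.

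Among receptors, *Grik2* stood apart from the rest. *Grik2*, a kainate receptor subunit, had 3 hippocampal peaks, all overlapping and all in intron 14 of 21, a gap of 28.3 kb with 17 of its 22 whole-brain peaks. The hippocampal folds were 2.61, 2.53 and 2.57, and the whole-brain folds at the same places 2.43, 2.27 and 4.38. The hippocampal −log10 p values were 1.40, 1.33 and 1.41. In the other 4 receptor genes none overlapped: the gap was 548 nt in *Grm7*, 21937 nt in *Gria2*, 36578 nt in *Grm5* and at least 219093 nt in *Grin2a*, whose hippocampal peaks were in intron 1 and whose whole-brain peak was in another intron.

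Scaffold and vesicle genes were mixed. *Frmpd4*, a scaffold that binds PSD-95, had 2 of 2 hippocampal peaks overlapping in intron 4, within 312 nt, at log2 folds of 4.45 and 2.37 against 4.05 and 4.41 in whole brain. *Lrrc7*, the scaffold densin-180, had 2 of 2, *Dlg2* 2 of 5, and *Cnksr2* and *Ctnnd2* 1 of 1 each. *Dlgap1* missed by 883 nt, *Gphn*, the scaffold of inhibitory synapses, by 154843 nt and *Kalrn*, a guanine nucleotide exchange factor of dendritic spines, by 269359 nt. *Syt1* had 3 of 6 overlapping across introns 3, 4 and 11, with hippocampal folds of 3.20, 2.18 and 2.15 and whole-brain folds of 4.50, 3.47 and 2.67. The vesicle genes *Stxbp5l*, the tomosyn-2 gene, and *Cadps*, a priming factor for dense-core vesicles, missed by 1768 and 2136 nt.

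Ion channel and RNA-binding protein genes covered both extremes. *Pex5l*, also named TRIP8b and an auxiliary subunit of HCN channels, had 2 of 2 peaks overlapping within 778 nt of intron 2, at log2 folds of 3.43 and 2.99 against 3.92 and 6.04. The latter was the highest whole-brain fold of any shared gene. *Kcnip4*, a subunit of A-type potassium channels, had 1 of 5 overlapping, with the others 11390 to 40625 nt away. *Kcnd2*, the pore subunit it partners, missed by 30894 nt. *Fam155a*, whose product is a subunit of the sodium leak channel, had 19 whole-brain and 3 hippocampal peaks, none overlapping, with gaps of 5405 to 41791 nt. *Rbfox3* had 3 of 3 within 795 nt of intron 5, on 2 of its 102 whole-brain peaks. *Celf2*, a splicing regulator, had 31 whole-brain peaks and 3 hippocampal peaks, none overlapping, 1221 to 6903 nt away. *Rbfox1*, a relative of *Rbfox3*, missed by 25823 nt. *Tardbp*, which encodes TDP-43, had 1 overlapping peak in its 3′ UTR in each list. The guidance receptor gene *Epha6* had 1 of 4 overlapping, at 2.99 in hippocampus and 2.46 in whole brain, and the others were 638, 873 and 52161 nt from the nearest whole-brain peak.

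**Figure D3:**
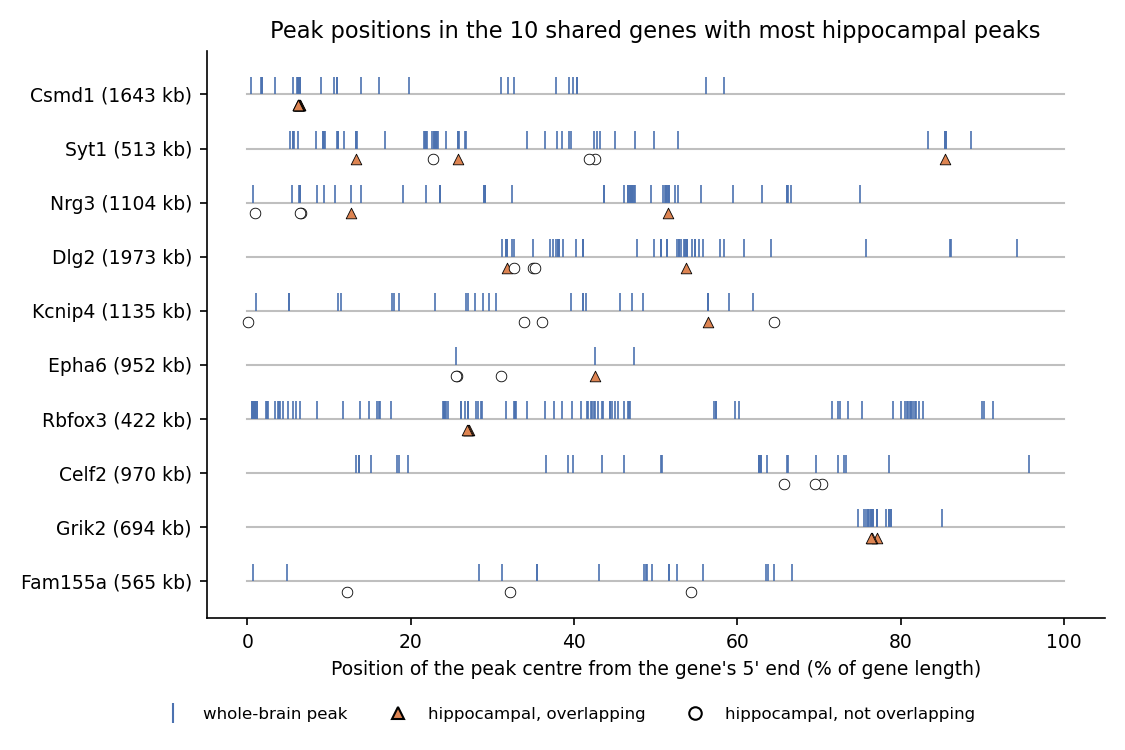
Peak centres in the 10 shared genes with most hippocampal peaks, as percent of gene length from the 5′ end (x axis). Blue ticks are whole-brain peaks, orange triangles hippocampal peaks that overlap one, and open circles hippocampal peaks that do not. The 9 *Csmd1*, 3 *Rbfox3* and 3 *Grik2* hippocampal peaks each fall in 1 tight group, and those of *Syt1* and *Kcnip4* are spread along the gene.

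Within the same genes, hippocampal peaks more often lay in repeat-masked sequence and less often held a UWAA. A window of 50 nt on each side of the centre was over 20% masked as repetitive in 76 of 103 hippocampal peaks (73.8%, 64.2 to 82.0) and 444 of 897 whole-brain peaks (49.5%, 46.2 to 52.8). With each gene as its own stratum, the odds ratio of hippocampus over whole brain was 3.09 (1.78 to 5.58), with a two-sided exact conditional p adjusted by Benjamini-Hochberg over 7 properties of 0.000112. At least 1 UWAA was present in 80 of 103 hippocampal (77.7%, 68.4 to 85.3) and 768 of 897 whole-brain windows (85.6%, 83.2 to 87.8), an odds ratio of 0.40 (0.20 to 0.85, adjusted exact p = 0.0347). Without *Csmd1* the UWAA odds ratio was 0.39 and its adjusted exact p 0.053, and with windows placed on the 5′ end of the peak these were 0.50 and 0.0736. Over windows with at most 20% masked bases the UWAA odds ratio was 0.082 (0.011 to 0.52, adjusted exact p = 0.00992), from 7 informative genes. The test compares 2 lists and not replicate tissues, and treats peaks of a gene as independent given the gene.

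The lower share with UWAA was seen in hippocampal peaks without overlap. When those alone were set against the whole-brain peaks of their gene, a split chosen after seeing the data, the odds ratio was 0.19 (0.08 to 0.46, adjusted exact p = 0.000403). For the overlapping peaks alone it was 1.59 (0.43 to 7.83, adjusted exact p = 0.911), where a shared stretch fixes much of the sequence. The difference between these odds ratios was not tested. The masked share was higher for both kinds of peak, at 2.83 (1.35 to 6.38, adjusted exact p = 0.0186) without overlap and 3.42 (1.49 to 8.68, adjusted exact p = 0.0115) with overlap. Restricting the lists to −log10 p of at least 2, or to a log2 fold of at least 3, turned the UWAA odds ratio to 1.11 (0.13 to 18.2) and 7.89 (0.27 to 796), and the masked odds ratios of 3.404 and 3.54 no longer passed the test (adjusted exact p = 0.392 and 0.848).

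More of the UWAA words lay in masked bases at hippocampal peaks, whose windows were also more masked. Of 344 UWAA words within 50 nt of hippocampal centres, 202 (58.7%) were in masked bases, against 1271 of 3271 (38.9%) at whole-brain centres. The median masked share of a window was 41.6% in hippocampus and 19.8% in whole brain. A relation of the words to masked bases beyond these shares was not tested. The 46 hippocampal peaks with over 50% of the window masked (44.7%, 34.9 to 54.8) compare with 124 whole-brain peaks (13.8%, 11.6 to 16.3). Windows without any masked base numbered 25 (24.3%) and 303 (33.8%).

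The other properties did not pass the test within the gene. A GGWGG word, a G-rich element used here as a contrast to the SLM2 motif, was in 27 hippocampal (26.2%, 18.04 to 35.8) and 163 whole-brain windows (18.2%, 15.7 to 20.9), with an odds ratio of 1.86 (1.03 to 3.28) and an adjusted exact p of 0.0714. Of the 163, 57 belonged to *Rbfox3*, in which only 27 of 102 whole-brain windows held a UWAA. The share within 500 nt of an exon was 7.77% (3.41 to 14.7) in hippocampus and 5.80% (4.36 to 7.53) in whole brain, with an odds ratio of 0.72 (0.16 to 2.45, adjusted exact p = 0.911). The 5′ 50% of the gene held 61.2% (51.1 to 70.6) and 62.2% (58.9 to 65.4), with an odds ratio of 1.36 (0.73 to 2.60, adjusted exact p = 0.657). These intervals do not exclude differences of moderate size.

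**Figure D4:**
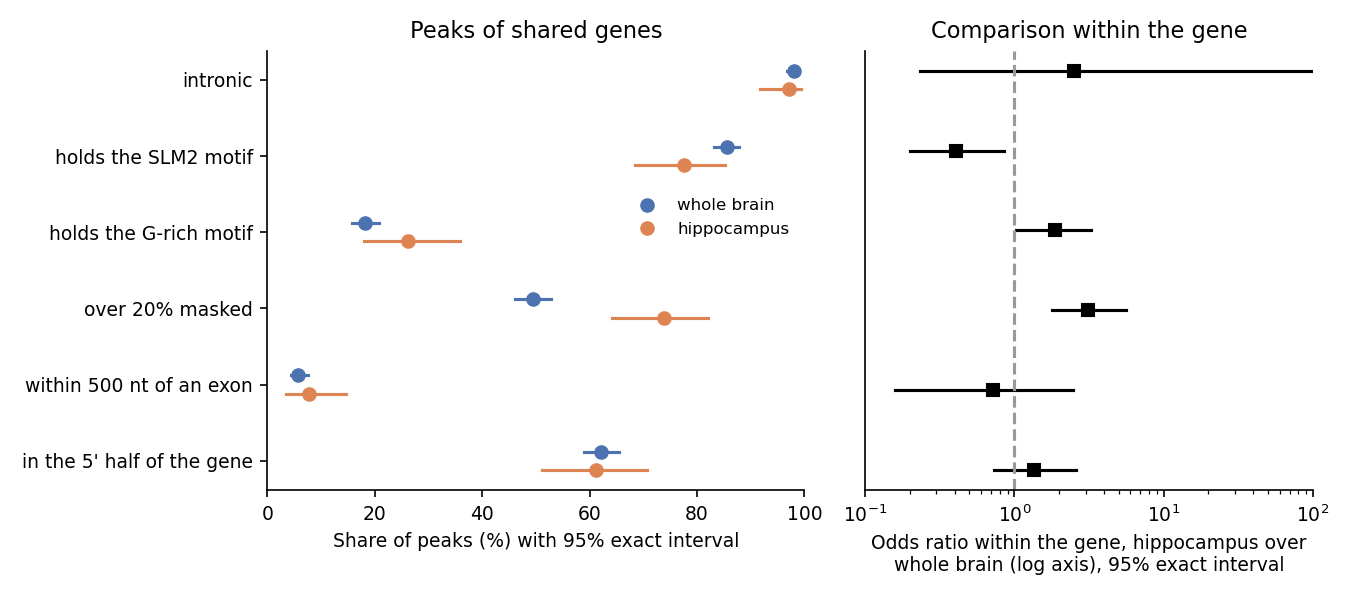
Left, share of peaks (x axis, percent) with each property in whole brain (blue, 897 peaks) and hippocampus (orange, 103 peaks), with exact 95% intervals. Right, odds ratio within the gene (x axis, log scale) with its exact 95% interval, which for intronic peaks runs past the axis to 165. The masked share lies above the dashed line of 1 and the SLM2 motif below it.

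Nearly all peaks were intronic in both lists. In hippocampus 100 of 103 peaks (97.1%, 91.7 to 99.4) and in whole brain 879 of 897 (98.0%, 96.9 to 98.8) had their centre in an intron, with an odds ratio of 2.497 (0.23 to 165, adjusted exact p = 0.911) from 9 informative genes. The hippocampal exceptions were *Kcns2*, a silent potassium channel subunit, in the 5′ UTR, *Tardbp* in the 3′ UTR, and *R3hdm1* in an exon without a coding frame. All 3 genes also had whole-brain peaks of the same feature. The *Grcc10* peak was in the 5′ UTR of that gene but is counted as intronic in the longer *Gm45234*. In the coding exons there was no hippocampal peak, an upper limit of 3.52%, and 1 whole-brain peak, in *Nrxn2*.

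Density of UWAA, in words per 100 positions, was compared within the gene over windows with at most 20% masked bases, which left 16 genes. The excess at peaks over flanks 450 to 550 nt away had a median of 1.40 in whole brain (interval of the median 0 to 2.72) and of 0 in hippocampus (-1.02 to 2.04). Hippocampus had the higher excess in 3 genes, whole brain in 9, and 4 were equal, with a median difference of -0.28 (-2.14 to 0). The difference was -1.02 (-2.76 to 0.18) in 13 genes without adaptor matches, and 0 with windows on the 5′ end of the peak or under either stricter threshold. *Epha6* had the largest excess of hippocampus over whole brain. Only 1 window of each of its lists passed the mask limit, with 6.12 words per 100 positions in hippocampus and 1.02 in whole brain. *Pex5l* (6.12 and 5.36) and *Nrg3* (2.04 and 2.45, with fewer in the hippocampal flanks) followed. *Gphn* had the largest deficit, with 1.02 in hippocampus and 5.44 in whole brain, followed by *Tardbp* (1.02 and 3.06) and *Celf2*, at 0 in hippocampus and 3.15 in whole brain. Most of these genes have 1 hippocampal window within the mask limit, so the values describe single sites. Over all windows of the 60 genes the higher excess was in hippocampus in 24, in whole brain in 28, with 8 equal. The difference then was 0.085 in *Epha6*, 0.12 in *Pex5l* and -1.12 in *Nrg3*. In *Gphn*, *Tardbp* and *Celf2* it was -6.76, -3.57 and -2.81. The median difference was 0 (0 to 0.51) in the 33 genes with an overlapping pair and -2.18 (-2.81 to 0.68) in the other 27.

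Overlapping hippocampal peaks more often reached a −log10 p of 2 than the others, though the call did not hold under all settings. The authors' −log10 p over input reached 2 in 19 of the 53 overlapping peaks (35.8%, 23.1 to 50.2) and in 6 of the 50 others (12.0%, 4.53 to 24.3), with a two-sided Fisher's exact p, adjusted by Benjamini-Hochberg over 7 comparisons of peaks, of 0.0405. Without peaks that match the sequencing adaptor the counts were 15 of 48 and 6 of 50, and the adjusted exact p was 0.104. With peaks within 50 nt merged the adjusted exact p was 0.0589. Fisher's test treats peaks of a gene as independent, which they are not. A UWAA was present in 84.9% (72.4 to 93.2) and 70.0% (55.4 to 82.1), an adjusted exact p of 0.17. In 38 of the 60 genes every hippocampal peak was below 2, and these genes rest on peaks that passed the fold and reproducibility thresholds alone. All whole-brain peaks of the shared genes were at 2.82 or above.

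Whole-brain peaks of the shared genes were set against those of other targets, and no property passed the test. Their 897 peaks held a UWAA in 85.6%, against 82.2% (79.8 to 84.4) of 1107 peaks in the other 361 genes (Fisher's exact test, adjusted p = 0.104). They were intronic in 98.0% and 96.5% (95.2 to 97.5, adjusted exact p = 0.104), and masked over 20% in 49.5% and 52.6% (49.6 to 55.6, adjusted exact p = 0.249).

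At overlapping pairs the fold over input was mostly the higher in whole brain. The median log2 fold was 2.63 in hippocampus (2.504 to 2.79) and 3.34 in whole brain (2.78 to 3.71), and the median difference within the pair was -0.49 (-0.95 to -0.03). Without the 5 pairs that match the sequencing adaptor, all of them higher in whole brain, it was -0.30 (-0.66 to 0.16), and with −log10 p of at least 2 it was -0.30 (-1.30 to 0.64). Whole brain had the higher fold in 35 of 53 pairs. Both lists hold only folds of at least 2, each fold is over the tissue's own input, and the hippocampal inputs had fewer reads. The largest difference was at *Pex5l*, with 2.99 in hippocampus and 6.04 in whole brain. The reverse was seen at *Rbfox3*, where 2 hippocampal peaks at 4.34 and 4.13 lay on a whole-brain peak of 600 nt at 2.90. *Frmpd4*, with 4.45 and 4.05, was also higher in hippocampus.

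**Figure D5:**
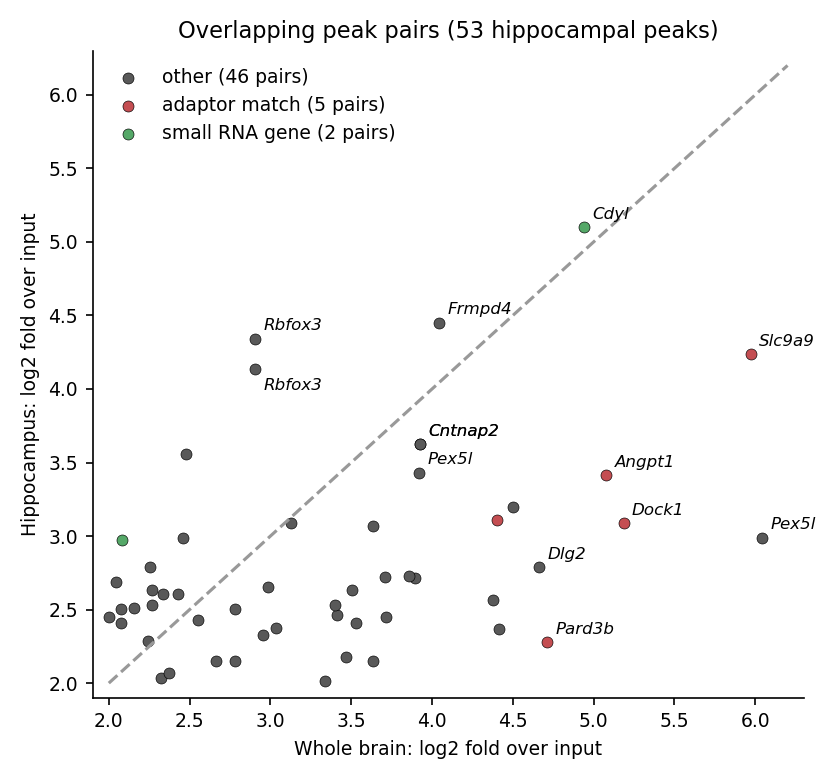
Log2 fold over input in whole brain (x axis) and hippocampus (y axis) at the 53 hippocampal peaks that overlap a whole-brain peak. Red points match the sequencing adaptor, green points lie on a small RNA gene, and the dashed line marks equal folds. Of the 53, 35 lie below the line, and *Pex5l*, *Pard3b* and *Dock1* are the farthest below.

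Some of the pairs with the highest folds were not on ordinary intron sequence. In *Slc9a9*, *Angpt1*, *Dock1*, *Kcns2* and *Pard3b* the only peak of each list was short, overlapped the other and matched the sequencing adaptor over at least 10 nt. Their log2 folds ran from 4.41 to 5.97 in whole brain and from 2.28 to 4.24 in hippocampus. Without adaptor matches 55 shared genes remained, and 48 of 98 hippocampal peaks (49.0%, 38.7 to 59.3) overlapped. The *Cdyl* pair, with 5.10 in hippocampus and 4.94 in whole brain, lay inside the annotated snRNA gene *Gm22126*, in a *Cdyl* intron. The *Grcc10* and *Gm45234* pair, with 2.98 and 2.08, lay in the U7 snRNA gene *Rnu7*, and the *Peak1* hippocampal peak, at 2.61, lay in the miRNA gene *Gm24270*. None of these 3 hippocampal peaks had a UWAA within 50 nt of its centre.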

How the data were processed

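SLM2 eCLIP and size-matched input libraries from wild-type mouse whole brain and hippocampus were analysed as 1 merged peak list per tissue. Per the submitters' processing notes and the study's methods, the tools were cutadapt 3.4 for trimming, STAR 2.7.9 for alignment (mm10) and UMI-tools 1.1.1 for removing PCR copies, followed by CLIPper peak calling and a merge of 2 replicates by irreproducible discovery rate (IDR). The deposited values, made by the authors, are the log2 fold change over input, the −log10 p against input and a score, −log10 IDR, without the read counts behind a peak. The lists have no header, so the column meanings were taken from the study's own peak sheet and checked against the ranges of values. Libraries of *Slm2* KO hippocampus were not used.

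Peaks were assigned to genes of GENCODE vM21 by centre and strand. Windows of 50 nt on each side of the centre, and flanks 450 to 550 nt away, were read from the GRCm38 genome with its repeat masking. Properties were compared with an exact conditional test stratified by gene (R 4.3.3) and with Fisher's exact test (scipy 1.17.1), each two-sided with Benjamini-Hochberg adjustment over 7 tests. Intervals are exact at 95%. Python 3.11.15, numpy 2.4.6, pandas 2.3.3, pysam 0.24.0, samtools 1.23.1 and matplotlib 3.10.9 were used, and the code was tested on simulated data.

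Members, gene lists and tests were chosen with earlier results of these data known. Named genes were the 10 with most hippocampal peaks, those of the 10 overlapping pairs with the highest lower fold, shared genes that the study names, up to 3 of each list, the 3 with the largest excess and the 3 with the largest deficit of UWAA, those with a hippocampal peak outside introns, and 3 on each side just outside the rule, of which 1 is not reported here. Other named genes complete a list or a count of 5 or fewer and were chosen after their values were seen.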

Additional observations from a re-analysis of the deposited data

How the results depend on the processing

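No paired analysis was possible because each tissue has 1 merged list without columns for replicates, and for the same reason no replicate could be left out. Requiring −log10 p of at least 2 left 22 shared genes with 76.0% of hippocampal peaks overlapping, and requiring a log2 fold of at least 3 left 13 genes with 80.0% overlapping and 100.0% in an intron with a whole-brain peak. The odds ratio for UWAA was above 1 under these thresholds, at 1.11 and 7.89, and for overlapping hippocampal peaks alone, at 1.59. These values rest on 9, 4 and 12 informative genes, and each interval included 1, so no reversal is shown. The UWAA odds ratio lost the call at 0.498 with windows on the 5′ end and at 0.387 without *Csmd1*. The odds ratio for masked windows kept its direction and lost the call under both thresholds, at 3.404 and 3.54. The difference in the share at −log10 p of at least 2 lost the call at 23.4 percentage points with peaks within 50 nt merged and at 19.2 without adaptor matches. The cause was not tested. Of all alternatives, 48 kept direction and call, or moved within the error. The intronic comparison gave no value under either threshold or with exons of protein-coding transcripts alone, and the −log10 p comparison gave none under either threshold. The difference in log2 fold at overlapping pairs moved from -0.49 to -0.30 without adaptor matches. All alternatives for the masked share and for the −log10 p share, the split by overlap and the removal of small RNA genes were chosen after seeing the data. Without read counts no limit on missed peaks can be given for either list.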
